A study of Mus musculus with 10 samples.

Results

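The genes described here are 10 genes that the normal stomach or intestine is known for and that were high in some mouse lung squamous cell carcinomas (SCC): Tff1, Tff2, Gkn2, Reg1, Reg3b, Anxa10, Lgals4, Vil1, Vsig1 and Sult1c2. They were selected on their measured values on these same arrays, so their levels and their differences between tumour and lung are given as a description with no test. A probe was taken as a gene's when its annotated transcript accession mapped to that symbol, and where a gene had several probes the brightest over all 10 arrays stood for it. The 10 genes had 12 probes among 41174 on the array, and 19096 genes had a probe with a symbol.

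RNA came from 5 whole lungs of mice labelled wild type (Lkb1f/f), and from 5 whole lung tumours of mice labelled CCSPiCreLkb1f/f. Both groups therefore carry floxed Lkb1 alleles, Lkb1 being the kinase gene Stk11, and only the tumour mice carry the Cre recombinase, which the Club Cell Secretory Protein promoter drives in airway epithelium. All mice were 13 months old, of strain B6.129 and without special treatment. The samples are called WT 1 to WT 5 and SCC 1 to SCC 5 after their labels, and each was hybridised to a single one-colour array. The level of Lkb1 itself was not analysed here.

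The stomach lining is covered by surface mucous cells, which secrete mucin together with small protective proteins, the trefoil factors and the gastrokines. Intestinal enterocytes carry a brush border of microvilli held up by actin-bundling proteins, and injured gut epithelium and the pancreas release Reg proteins, which are secreted C-type lectins. Lung epithelium arises from the same foregut endoderm as the stomach, and it shares several transcription factors with it.

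The stretches of DNA just before the annotated start sites are shown for 6 of the genes because they differ in a core promoter motif and the same genes differ in their level in normal lung. The RefSeq promoter table of build GRCm38.p6 held 8 of the 10 genes, all but Tff1 and Tff2. Each line gives the 100 bases before the start, 5′ to 3′ in the gene's direction, and capitals mark the TATA box letters TATAAA.
Reg1: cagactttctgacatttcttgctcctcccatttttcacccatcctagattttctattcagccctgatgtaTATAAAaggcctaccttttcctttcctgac
Reg3b: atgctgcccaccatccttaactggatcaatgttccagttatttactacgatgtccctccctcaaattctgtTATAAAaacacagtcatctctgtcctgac
Gkn2: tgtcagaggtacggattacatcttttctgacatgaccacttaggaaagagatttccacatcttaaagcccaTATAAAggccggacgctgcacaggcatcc
Anxa10: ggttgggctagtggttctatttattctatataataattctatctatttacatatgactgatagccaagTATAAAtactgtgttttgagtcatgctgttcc
Vil1: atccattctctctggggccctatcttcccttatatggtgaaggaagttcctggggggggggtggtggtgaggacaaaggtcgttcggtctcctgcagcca
Lgals4: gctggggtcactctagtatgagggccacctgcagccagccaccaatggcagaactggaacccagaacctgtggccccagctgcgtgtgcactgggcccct
The Reg1 stretch lies at chr6:78425883-78425982 (plus strand), that of Reg3b at chr6:78370785-78370884 (plus strand) and that of Gkn2 at chr6:87373265-87373364 (plus strand). The Anxa10 stretch lies at chr8:62123194-62123293 (minus strand), that of Vil1 at chr1:74409284-74409383 (plus strand) and that of Lgals4 at chr7:28833694-28833793 (plus strand).

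TATAAA began 29 to 32 bases before the start on the gene's own strand in 4 of the 8 promoters, those of Reg1, Reg3b, Gkn2 and Anxa10. Of all 32851 promoters in the table, 1.75% held it on that strand between 25 and 35 bases before the start, and 12.4% held it on either strand anywhere in the 250 bases. In normal lung those 4 genes were well above background on 1, 0, 0 and 0 of the 5 WT arrays, as the scanner software flags a spot. The 4 genes without the motif, Vil1, Lgals4, Sult1c2 and Vsig1, were well above background on 5, 5, 5 and 4 WT arrays. This is a description of 8 promoters, made with the levels known. Searched on both strands, the HNF4 motif CAAAGTCCA, the FOXA motif TGTTTAC and the CDX motif CCATAAA were in none of the 8 windows, and 0.384%, 3.17% and 2.43% of all promoters held them. The HNF1 motif GTTAAT was in the Vsig1 window alone (6.43% of all promoters) and the GATA motif AGATAA in that of Gkn2 alone (9.99%).

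The arrays themselves fell into uneven sets. Over 30267 tested probes with a value on every array, Pearson's r was 0.986 to 0.993 between WT arrays and 0.984 to 0.990 among SCC 1, SCC 3 and SCC 4, but 0.929 to 0.948 between SCC 2 and those tumours, 0.945 to 0.950 between SCC 5 and those tumours, and 0.906 between SCC 2 and SCC 5. Between 71.0% and 74.5% of probes were well above background on 9 arrays and 90.2% on SCC 5, so that low values on SCC 5 pass that flag more readily than elsewhere. Xist, the RNA that coats the inactive X chromosome, was at 2.58 on SCC 2, and the rest of the tumours had 13.75 to 14.19 of it in normalized log2 intensity, the scale of every level below. The Y-linked Ddx3y was at 11.28 on SCC 2, 8.34 on SCC 5 and 2.07 to 2.10 on SCC 1, SCC 3 and SCC 4, so SCC 5 carried signal of both. The lungs were mixed too: WT 2 and WT 3 had Xist at 4.33 and 2.27 and Ddx3y at 10.91 and 11.53, and WT 1, WT 4 and WT 5 had Xist at 13.88 to 14.19 and Ddx3y at 2.05 to 4.87. The labels do not give the sex of the mice, and the part of these differences in the results was not tested.

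All 10 genes were highest on SCC 2 and next highest on SCC 5. Reg3b, Gkn2 and Anxa10 were measured above background on none of the WT arrays, so for the summaries over the 10 genes any value under the lowest level its array measured for any probe was raised to that level. On that basis they stood 4.44 to 12.71 log2 units above the highest WT array on SCC 2 (median 9.19) and 2.01 to 10.68 units above it on SCC 5 (median 6.72), where the medians are lower limits. This order, with SCC 2 at least 4-fold above every WT array, was met by 0.987% of the 15507 genes well above background on SCC 2; the order was read from these values, so it is no test, and dim values entered it as read. On SCC 1, SCC 3 and SCC 4 the same genes parted into sets: 5 were well above background on all 3 tumours and above every WT array, as 25.5% of all genes with a symbol were by the same rule, 3 were well above background on every WT array and above all 3 tumours, as 26.9% were, and the remaining pair, Reg3b and Gkn2, met neither.

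**Figure D1:**
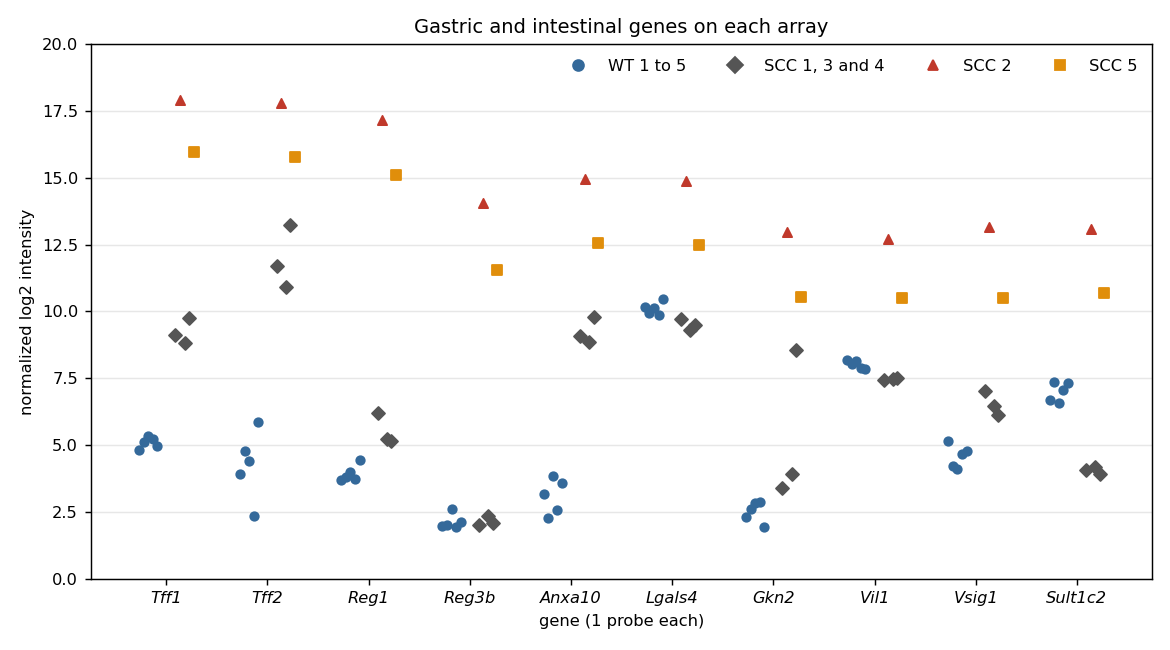
Normalized log2 intensity (vertical axis) of the 10 gastric and intestinal genes (horizontal axis, 1 probe each) on each of 10 arrays, 1 point an array: circles WT 1 to 5, diamonds SCC 1, 3 and 4, triangles SCC 2, squares SCC 5. SCC 2 is the highest and SCC 5 the next highest array for every gene, and for Lgals4, Vil1 and Sult1c2 the diamonds lie below the circles.

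Tff1 and Tff2 encode trefoil factors, small disulphide-folded peptides that gastric mucous cells secrete to protect and repair the lining. Tff1 was at 4.83, 5.12, 5.34, 5.22 and 4.96 on WT 1 to WT 5 and at 9.13, 17.89, 8.83, 9.77 and 15.96 on SCC 1 to SCC 5. Every tumour was above every lung, and the lowest tumour was over 3 log2 units above the highest lung. Against the WT mean of 5.09 ± 0.20 (SD, n = 5), Tff1 was 7119-fold higher on SCC 2 and 1873-fold higher on SCC 5. Tff2 was at 3.92, 4.78, 4.40, 2.34 and 5.87 on the WT arrays and at 11.71, 17.79, 10.93, 13.23 and 15.79 on the SCC arrays. Its groups did not overlap either, and SCC 4 came after SCC 2 and SCC 5. Tff2 was well above background on 2 of the 5 WT arrays. The mean SCC minus WT difference was 7.22 for Tff1 and, with the dim WT values raised as above, 9.31 for Tff2, the latter the largest of the 10.

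Gkn2 encodes gastrokine 2, which surface mucous cells secrete and which forms a complex with the Tff1 protein. It was at 1.92 to 2.88 on the WT arrays, none of them well above background, and at 3.40, 12.98, 3.91, 8.54 and 10.53 on SCC 1 to SCC 5. SCC 2, SCC 4 and SCC 5 were well above background and SCC 1 and SCC 3 were not. Where no WT array measured a probe, a fold is given as a bound, against the mean over WT arrays of the lowest level that array measured for any probe: Gkn2 was at least 492-fold higher on SCC 2 and at least 90.0-fold higher on SCC 5. Gkn2 was the only one of the 10 genes to be well above background on SCC 4 and not on SCC 1 and SCC 3.

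Reg1 and Reg3b encode Reg lectins. Reg1 is known as a product of pancreatic acinar cells and of regenerating gut mucosa, and Reg3b as a bactericidal lectin of the small intestine. Reg1 was at 3.70, 3.82, 3.98, 3.73 and 4.43 on the WT arrays and at 6.20, 17.15, 5.23, 5.16 and 15.11 on the SCC arrays. Only 1 WT array measured it above background, and with the dim WT values raised the level on SCC 2 was at least 8690-fold above lung, while SCC 3 and SCC 4 were within 1 log2 unit of the highest lung. Reg3b was at 1.98, 2.01, 2.63, 1.92 and 2.11 on the WT arrays and at 2.01, 14.04, 2.34, 2.08 and 11.53 on the SCC arrays. It was well above background on SCC 2 and SCC 5 alone, at least 1023-fold and at least 180-fold higher than in lung, and the other tumours lay inside the range of the lungs. For Reg3b the SCC mean of 6.40 ± 5.90 (SD, n = 5) was over 4 log2 units from each of the 5 tumours.

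Anxa10 encodes annexin A10, a calcium and phospholipid binding protein of gastric mucosa. It was at 3.17, 2.29, 3.83, 2.56 and 3.59 on the WT arrays, none well above background, and at 9.08, 14.96, 8.87, 9.78 and 12.56 on the SCC arrays. All 5 tumours measured it well above background and all were above every lung. It was at least 1934-fold higher on SCC 2 and at least 366-fold on SCC 5, and the 5 tumours together averaged at least 129-fold. These limits hold for the scaling used here. Normexp background correction took a modelled background off the median spot signal and then added a constant. Under it the mean difference was 4.46 log2 units for Anxa10 against 7.96 as read, and 6.72 for Tff2 against 9.63. Vsig1, a junctional adhesion protein of the immunoglobulin family found in stomach epithelium, was at 5.16, 4.21, 4.10, 4.65 and 4.77 on the WT arrays and at 7.02, 13.15, 6.47, 6.12 and 10.51 on the SCC arrays. It too was higher on every tumour than on every lung, by 379-fold on SCC 2 and 60.9-fold on SCC 5 over the WT mean of 4.58 ± 0.43 (SD, n = 5).

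Lgals4, Vil1 and Sult1c2 were measured in normal lung, and here the tumours lay on both sides of it. Lgals4 encodes galectin 4, a lectin that sorts glycoproteins to the apical face of enterocytes. It was at 10.15, 9.95, 10.14, 9.85 and 10.45 on the WT arrays and at 9.70, 14.89, 9.32, 9.51 and 12.47 on the SCC arrays. SCC 2 and SCC 5 were 27.5-fold and 5.13-fold above the WT mean, and the other 3 tumours were each below the lowest lung. The dimmer Lgals4 probe was at 7.72 to 8.52 on the WT arrays and at 7.78, 13.26, 7.71, 7.74 and 10.66 on the SCC arrays, so by that probe SCC 1 and SCC 4 lay inside the range of the lungs and SCC 3 just below it.

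Vil1 encodes villin, the actin-bundling protein of brush border microvilli. It was at 8.18, 8.05, 8.16, 7.89 and 7.85 on the WT arrays and at 7.45, 12.71, 7.45, 7.51 and 10.50 on the SCC arrays. SCC 2 was 25.6-fold and SCC 5 5.57-fold above the WT mean, and SCC 1, SCC 3 and SCC 4 were below every lung. The dimmer Vil1 probe gave the same picture, with 7.62 to 8.06 on the WT arrays and 7.24, 12.58, 7.29, 7.40 and 10.24 on the SCC arrays.

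Sult1c2 encodes a cytosolic sulfotransferase of stomach and kidney. It was at 6.69, 7.36, 6.57, 7.08 and 7.31 on the WT arrays and at 4.08, 13.08, 4.18, 3.91 and 10.68 on the SCC arrays. SCC 1, SCC 3 and SCC 4 were not well above background, and every lung was. SCC 2 was 67.7-fold and SCC 5 12.8-fold above the WT mean, whose SD was 0.36 (n = 5), and no tumour lay within the range of the lungs. The mean difference between the groups, 0.19, thus averages tumours above lung with tumours that gave only an upper limit below it.

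With dim values raised, the mean SCC minus WT differences of the 10 genes ran from 0.29 to 9.31 with a median of 4.07 (4.82 as read). With SCC 2 and SCC 5 both left out the median was 1.55, and Lgals4 and Vil1 turned to -0.60 and -0.56. Sult1c2 turned to -2.77, a limit, since none of the remaining tumours measured it above background. Slide 2 was the only slide to hold arrays of both groups, and within it SCC 1, SCC 2 and SCC 3 minus WT 5 gave mean differences, as read, from -0.20 for Sult1c2, which SCC 1 and SCC 3 did not measure, to 7.60 for Tff2. The median of the 10 genes, each minus its own WT mean, was 1.12 on SCC 1, 9.47 on SCC 2, 0.72 on SCC 3, 1.32 on SCC 4 and 6.99 on SCC 5 with dim values raised. In bulk tissue, fewer cells of a type and less RNA per cell cannot be told apart, so a low level can be either.

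SCC 5 was below SCC 2 by a similar amount for every gene. The difference SCC 5 minus SCC 2 ran from -2.64 for Vsig1 to -1.93 for Tff1, with a median of -2.40, while the level on SCC 2 itself ran from 12.71 to 17.89. The same was asked of other genes high on SCC 2. Among 30261 probes well above background there, 36 probes of other genes were at least 16-fold higher on SCC 2 than on every array except SCC 5, and 12 member probes were too. On SCC 5 those 36 probes were a median of 2.97 below SCC 2 (quartiles -3.90 and -2.56), 30 of them had SCC 5 as the next highest array, and 27 were at least 2-fold higher on SCC 5 than on the other 8. The Y-linked Ddx3y and Eif2s3y had SCC 5 minus SCC 2 differences of -2.94 and -3.02. SCC 5 also had high probes of its own: 15 tested probes were at least 16-fold higher on it than on every other array, SCC 2 included, and 0 were so on SCC 2. The part of any shared RNA, cell mixture or tumour type in this was not tested.

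**Figure D2:**
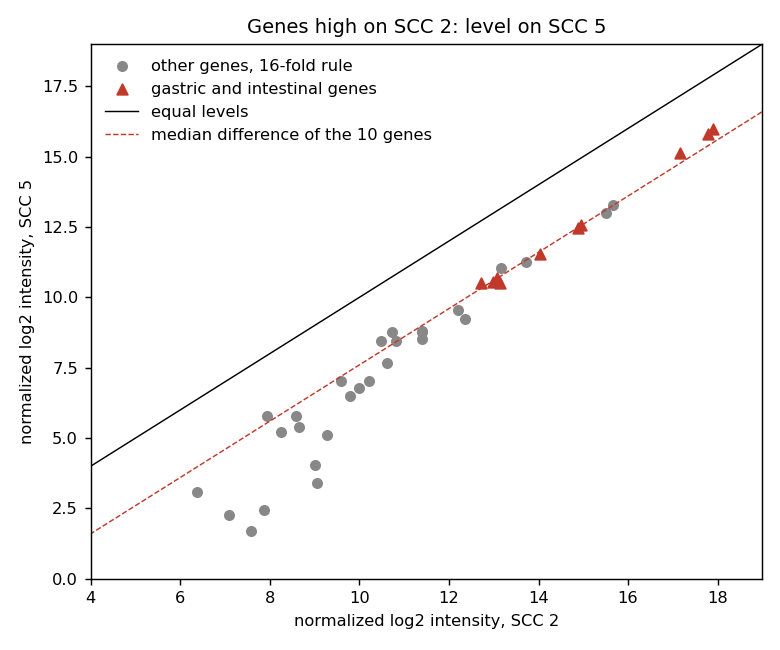
Normalized log2 intensity on SCC 2 (horizontal axis) and on SCC 5 (vertical axis) of the 10 gastric and intestinal genes (triangles) and of 28 other genes that were at least 16-fold higher on SCC 2 than on every array except SCC 5 (circles, 1 probe each). The solid line marks equal levels and the dashed line the median difference of the 10 genes, -2.40, near which all triangles lie.

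The 28 other genes with a symbol were not tested for any theme. Among them were Alb, the serum albumin gene, at 11.41 on SCC 2, 8.76 on SCC 5 and at most 6.26 elsewhere, and Pla2g10, a secreted phospholipase gene, at 11.39, 8.50 and at most 5.79. These genes were chosen for naming after their values were seen. Hnf4a, a transcription factor of liver and gut endoderm, had probes that disagreed: its brightest probe was at 5.07 on SCC 2 and 3.83 on SCC 5 with 4.10 to 4.59 on the WT arrays, a second was at 9.59 on SCC 2 and 7.03 on SCC 5 with at most 4.40 elsewhere, and the remaining probe was at 4.67 on SCC 2, 8.88 on SCC 5 and at most 2.07 elsewhere. Which of the transcripts each probe reads is not known from the files.

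Several of the 10 genes have relatives beside them on the chromosome. In RefSeq the trefoil factor genes lie on chromosome 17 in the order Tff3, Tff2, Tff1, the Reg genes on chromosome 6 in the order Reg3b, Reg3d, Reg3a, Reg2, Reg1, Reg3g, and the gastrokine genes on chromosome 6 in the order Gkn1, Gkn2, Gkn3, with 0 other protein-coding genes between them in each case. Tff3, the intestinal goblet cell trefoil factor, was at 5.20, 10.83, 2.50, 2.11 and 8.46 on SCC 1 to SCC 5 against 2.15 to 4.33 on the WT arrays. SCC 2 and SCC 5 were its highest arrays, as for Tff1 and Tff2, but SCC 4, which came next for those genes, was not well above background for Tff3.

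Reg3g, which encodes the bactericidal partner of Reg3b, was at 10.14, 17.28, 8.56 and 15.46 on SCC 1, SCC 2, SCC 4 and SCC 5, with no usable spot on SCC 3, against 2.36 to 6.71 on the WT arrays. Of the cluster genes outside the 10, Reg3g and Gkn3 could be tested between SCC and WT, and Reg3g rose by 7.62 ± 1.80 (SE) log2 units with limma adjusted p = 0.00774. Reg2 was well above background on SCC 2 and SCC 5 alone, at 6.38 and 3.07 against 1.70 to 1.87 in lung, and the fall from SCC 2 to SCC 5 had the direction seen in Reg1. Reg3a and Reg3d stayed below 4.2 on every array. Probes for such closely related genes may share signal, which was not tested.

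The gastrokine cluster was uneven. Gkn1 was well above background on SCC 2 and SCC 5 alone, at 4.14 and 4.56. Gkn3 was measured on all 10 arrays, at most 9.11 in lung and at 8.29, 9.78, 8.64, 7.74 and 8.75 on SCC 1 to SCC 5, with a difference of 0.06 that did not pass the test (limma adjusted p = 0.91). On SCC 2, Gkn2 stood at least 8.67 log2 units above the highest lung and Gkn3 0.67.

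**Figure D3:**
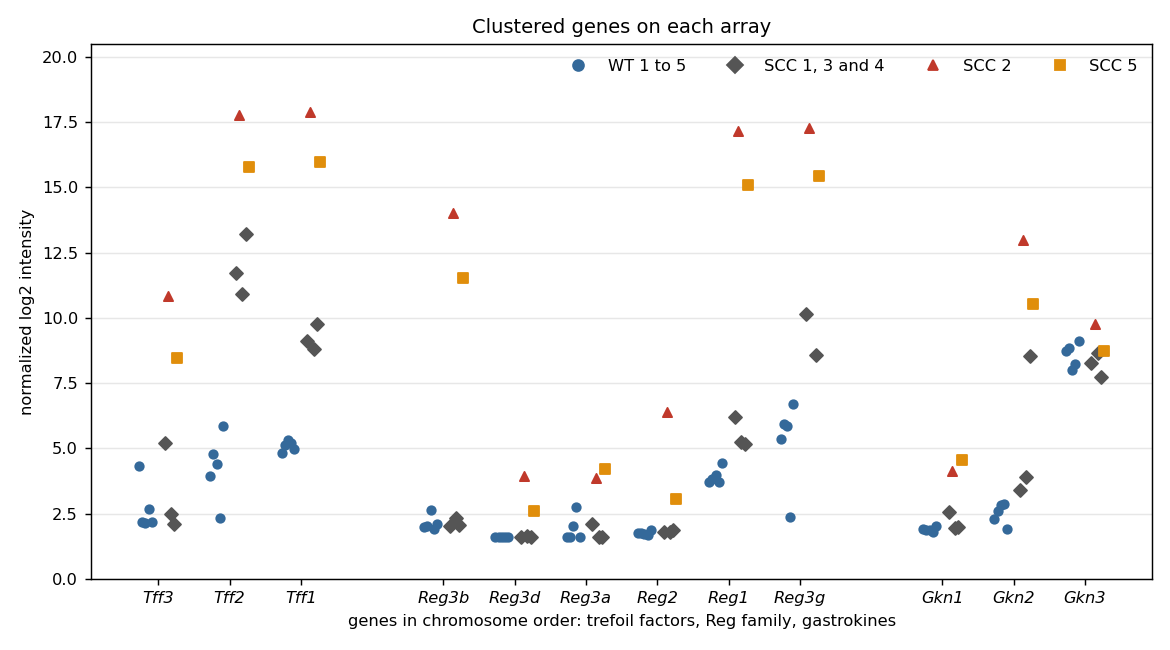
Normalized log2 intensity (vertical axis) on each array of the trefoil factor, Reg and gastrokine genes in chromosome order (horizontal axis), 1 point an array: circles WT, diamonds SCC 1, 3 and 4, triangles SCC 2, squares SCC 5. Reg3g has no point for SCC 3, Gkn3 overlaps between the groups, and the high triangles and squares are those of Tff1, Tff2, Tff3, Reg1, Reg3b, Reg3g and Gkn2.

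Profiles over the 10 arrays, each gene minus its WT mean and dim values as read, were compared by the root mean square of their log2 difference among 15512 genes. Lgals4 and Vil1 were nearest to each other of the 10, at 0.21, and both had Aldh3a1, an aldehyde dehydrogenase gene, as the nearest other gene, at 0.33 and 0.40. Aldh3a1 was at 7.50 to 8.03 on the WT arrays and at 7.18, 11.93, 6.51, 7.20 and 9.44 on the SCC arrays. Scara3 and Igdcc4 followed for both, at 0.50 and 0.51 for Lgals4 and 0.49 and 0.50 for Vil1.

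The distances of Anxa10 and Tff2 rest in part on dim WT values, since 0 and 2 of the 5 WT arrays measured them above background, and no WT array measured their neighbours Gp2 and 2210407C18Rik. Anxa10 was nearest to Them5 at 0.79, Agr2 at 0.84 and Gp2 at 1.04. Tff1 also had Them5 nearest, at 1.80, then Agr2 at 2.00 and 2210407C18Rik at 2.06, and Tff2 had 2210407C18Rik at 1.17, Gp2 at 1.50 and Agr2 at 1.66. Agr2, a disulphide isomerase of mucus-secreting cells, was at 12.62, 15.73, 11.84, 12.95 and 13.66 on the SCC arrays and at 4.72 to 5.76 on the WT arrays. SCC 2 was the highest array for Them5, Agr2, Gp2 and 2210407C18Rik, and SCC 5 was the next highest for all but Gp2, which was at 10.87 on SCC 4 and 10.85 on SCC 5. Vsig1 had Itih2 at 1.08, Acnat1 at 1.09 and Pnliprp1 at 1.17, and Sult1c2 had Alb and Myl1 at 1.08 and Ugt2b34 at 1.21.

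For Reg1, Reg3b and Gkn2 the distances rest on WT values that were mostly or wholly not above background. Their closest genes were Itih2 at 2.77, ccdc198 at 2.90 and Acnat1 at 3.08 for Reg1, Itih2 at 2.07, Acnat1 at 2.36 and Dnajc22 at 2.78 for Reg3b, and Dnajc22 at 2.15, Tmc5 at 2.21 and Itih2 at 2.22 for Gkn2. Itih2, which encodes a heavy chain of the inter-alpha-trypsin inhibitor, was at 5.21 to 6.88 on the WT arrays and at 7.01, 13.72, 5.79, 7.34 and 11.26 on the SCC arrays. With dim values raised, Itih2 was the nearest gene for all 3, at 2.70 for Reg1, 1.26 for Reg3b and 1.35 for Gkn2. In that setting, chosen after seeing the data, Lgals4, Vil1, Vsig1, Sult1c2 and Reg3b kept all 3 of their nearest genes, Tff1, Tff2, Anxa10 and Gkn2 kept 2, and Reg1 kept 1.

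Other genes were taken from 6 lists, none of them holding the 10: lists of stomach, intestine and endoderm genes and a list of relatives of the 10 by family. Those relatives, of which 33 were tested and 11 rose, were listed whether or not they are genes of stomach or gut. The transcription factor list also holds the lung factor Nkx2-1. The pooled counts that follow include all of these. Of 124 list genes with a probe, 96 could be tested between SCC and WT, and 41 rose and 10 fell, a call meaning a difference of 2-fold or more and a limma p that stayed under 0.05 after Benjamini-Hochberg adjustment over all tested probes. Over all 15586 tested genes, 11.6% rose and 13.4% fell, and the median difference was -0.04, against 0.71 over the 96. With slide as a fixed block, which leaves few arrays to set one group against the other, 19 of the list genes passed and 18 of the 33 named here lost the call, and with SCC 2 and SCC 5 both left out 42 rose and 12 fell. The order of SCC 2 first and SCC 5 next, at least 4-fold above lung, was met by 14 of 103 list genes well above background on SCC 2. Of 35 list genes with more than 1 probe, 15 had probes whose differences lay over 1 log2 unit apart, and for Fut2, Bhlha15, Myo1a, Hnf4a and Vsig2 the order was met by some probes and not by others.

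Among gastric pit and surface mucous genes, 5 of 8 tested rose, 2 fell and 1 did not pass, with a median of 1.52. Psca, a surface antigen of gastric and prostate epithelium, rose by 7.16 ± 1.40 (SE), and Muc5ac, the main gastric surface mucin, by 3.99 ± 0.43 on its brightest probe. The other Muc5ac probe, also well above background on all 10 arrays, differed by -0.09 and did not pass (limma adjusted p = 0.778). Psca went against the 10 genes: it was at 13.37, 6.01, 13.97, 13.90 and 13.56 on SCC 1 to SCC 5, so SCC 2 was the lowest tumour. Muc5ac was at 10.85, 11.67, 9.10, 9.93 and 10.05, and SCC 5 was not next highest. Fut2, a fucosyltransferase of mucous cells, rose by 1.66, and Capn9, a stomach calpain that no WT array measured above background, was called higher too, while the tight junction gene Cldn18 fell by 1.54 and the tetraspanin gene Tspan8 fell by 1.27, a call lost when WT 3, SCC 1 or SCC 3 was left out. Under normexp background correction Fut2 and Capn9 lost their calls, with differences of 0.58 and 0.38, and 3 of the 8 rose. None of the 9 genes of this list well above background on SCC 2 met the order of the 10.

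Among gastric gland genes, 3 of 9 tested rose and 6 did not pass, with a median of 0.49. Aqp4, a water channel of parietal cells, rose by 3.99 ± 0.50 (SE), Bhlha15, a transcription factor of zymogen-secreting cells, by 2.20 ± 0.41, and Cblif, the gene of gastric intrinsic factor, by 1.61 ± 0.38, a call lost under normexp, where it was 0.44. Bhlha15 and Pga5 met the order of the 10. The acid pump genes Atp4a and Atp4b and the zymogen gene Pgc did not pass the test or could not be tested, and Atp4a was well above background on 0 arrays.

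Among enterocyte and brush border genes, 9 of 21 tested rose, 3 fell and 9 did not pass, with a median of 1.00. Krt20, an intestinal keratin, rose by 7.07 ± 0.72 (SE) with dim values as read and 6.92 with them raised, only 1 WT array having measured it, Rbp2, a retinol carrier, by 3.85 ± 0.53, Gpa33, an intestinal surface antigen, by at least 8.58-fold, and Slc5a1, the glucose transporter, by 3.44 ± 0.44. Lgals2, a relative of Lgals4 that 2 of the 5 tumours measured, fell by 5.32 ± 0.51 as read and by 5.28 with dim values raised, Fabp1, the liver and gut fatty acid carrier, fell by 4.60 ± 0.54 and the peptidase gene Dpp4 fell by 2.08 ± 0.15. Under normexp the differences of Krt20, Rbp2, Gpa33 and Lgals2 were 4.27, 1.77, 1.22 and -2.66, so the limit given for Gpa33 does not carry over to that setting. Myo1a, Phgr1 and Eps8l3 met the order of the 10. Eps8l3 was well above background on SCC 2 and SCC 5 alone, at 11.40 and 8.79, with 1.74 to 3.08 on the WT arrays. Other genes of this list were highest on SCC 5 and not raised on SCC 2. Ush1c was at 7.47 on SCC 5 and 4.97 on SCC 2, against 4.41 to 5.21 in lung. Sis was at 6.33 and 3.60, against 3.30 to 4.80, and Lct at 6.38 and 2.33, against 2.34 to 2.50. SCC 2 did not measure Sis or Lct above background, and these genes were picked after their values were seen.

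Among intestinal goblet and Paneth cell genes, 8 of 13 tested rose and 5 did not pass, with a median of 2.31. Clca1, a secreted goblet cell protein gene, was at least 304-fold higher, Agr2 rose by 7.95 ± 0.63 (SE), Retnlb, the goblet cell resistin-like gene, was at least 8.32-fold higher, and Spdef, a goblet cell transcription factor, rose by 3.50 ± 0.56. Under normexp Clca1 and Retnlb differed by 5.65 and 1.42 log2 units, less than these limits. Clca1 was at 14.58, 6.86, 14.88, 10.47 and 14.63 on SCC 1 to SCC 5, with SCC 2 the lowest. Agr2, Spdef, Tff3 and Mmp7 met the order of the 10.

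Among transcription factors of endoderm and gut, 5 of 12 tested rose, 2 fell and 5 did not pass, with a median of 0.09. Sox9 rose by 5.11 ± 0.30 (SE), Klf5 by 2.35 ± 0.11, Foxa1 by 1.48 ± 0.22 and Foxa3 was called higher, at least 3.41-fold over the 5 tumours, while Gata5 fell by 2.17 ± 0.75 and Gata6 fell by 1.61 ± 0.36. The intestinal regulator genes Cdx1 and Cdx2 were well above background on SCC 5 alone, at 4.35 and 2.57, and the latter was close to the 2.51 of Cdx2 on WT 4. Nkx2-1, the lung lineage factor, was at 12.17 to 12.44 on the SCC arrays against 12.42 to 12.62 in lung. Gata5 was at 8.74 on SCC 2 and 3.99 to 5.37 on the other tumours, and Gata6 at 12.57 on SCC 2 and 10.49 to 11.09 on the others, so SCC 2 was above every lung for Gata5 and inside the range of the lungs for Gata6. Foxa3 was at 8.75 on SCC 2 and 4.37 to 5.61 on the other tumours, and its difference of 1.97 as read was 1.25 without SCC 2. Foxa3 lost its call in 7 of the 10 fits that left out a single array, and Gata5 in 9 of 10, and under normexp both lost it, with differences of 0.59 and -0.94, so that 3 of the 12 rose.

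Among relatives of the 10 by family, 11 of 33 tested rose, 3 fell and 19 did not pass, with a median of 0.44. The largest rises were those of Reg3g, Lgals7 by 5.51 ± 1.67 (SE), the actin-severing gene Scin by 3.42 ± 0.67 and Anxa8 by 3.05 ± 0.35. The falls were those of the sulfotransferase genes Sult1d1, which 3 of the 5 tumours measured and which fell by 4.29 ± 0.90 as read and by 4.13 with dim values raised (-1.94 under normexp), and Sult1a1, which fell by 2.43 ± 0.48, and of gelsolin, Gsn, which fell by 1.28 ± 0.13. Lgals7, a keratinocyte galectin, was at 2.49 on SCC 2 and 11.04 to 11.93 on the other tumours, so SCC 2 was its lowest tumour and the highest for Lgals4, and it lost its call without SCC 3. Lgals7 was well above background on 1 WT array and not on SCC 2, and its difference was 5.48 with dim values raised, 7.30 without SCC 2 and 3.43 under normexp. Sult1b1, a gut sulfotransferase gene, was well above background on SCC 2 and SCC 5 alone, at 10.62 and 7.66 against 2.08 to 2.90 in lung. Anxa13 and Vill, the intestinal annexin and a villin-like gene, also met the order of the 10.

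**Figure D4:**
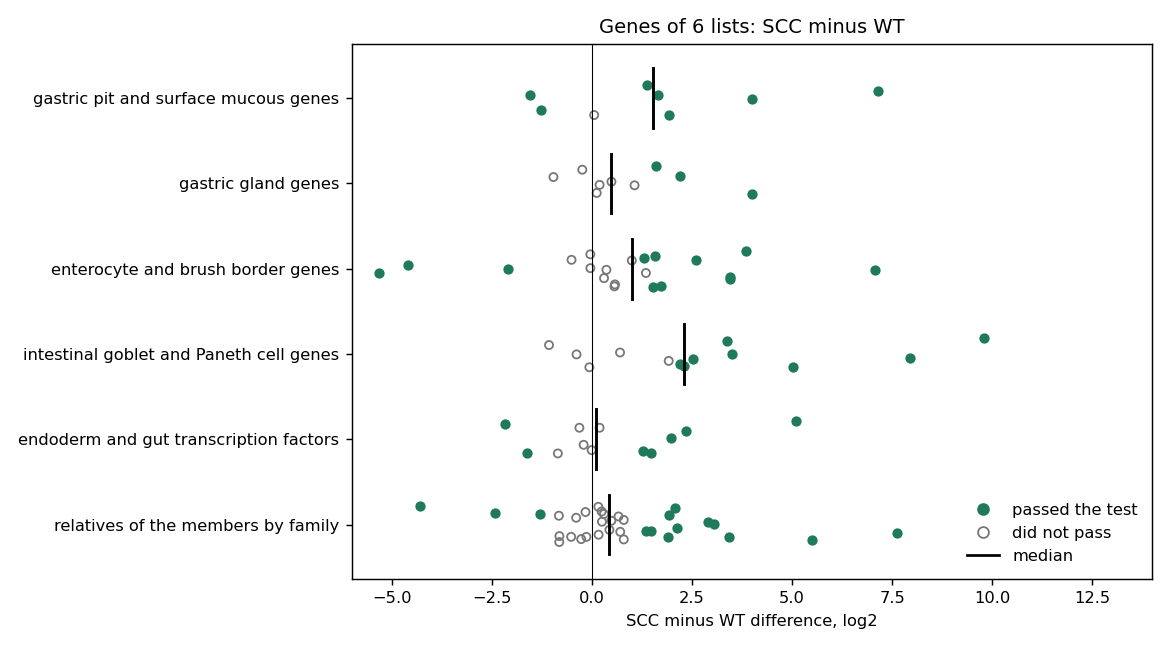
SCC minus WT difference in log2 units (horizontal axis) of the tested genes of 6 lists (vertical axis), 1 point a gene, filled where the gene passed the limma test, with a bar at the list's median. The medians run from 0.09 for transcription factors to 2.31 for goblet and Paneth cell genes.

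Markers of other cell types were read on the same arrays, as the mean level of each list. The squamous score was 5.72 to 6.02 on the WT arrays, 10.43 on SCC 2 and 13.13 to 13.48 on the other tumours, and Krt5 and Trp63, which define squamous cells, were at 15.60 and 12.13 on SCC 2 against 17.45 to 17.70 and 12.82 to 13.45 on the other tumours. All 5 tumours thus carried both genes at over 8 and over 6 log2 units above the highest lung. Krt5 rose by 11.35 ± 0.41 (SE) and Trp63 by 7.44 ± 0.27, with limma adjusted p = 2.14e-07 and 2.13e-07. In the squamous list 12 of 14 genes rose and 2 did not pass.

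SCC 2 was also the lowest tumour for the neutrophil score, 9.76 against 12.09 to 12.26, and just below the 9.81 to 10.71 of the lungs, and the highest tumour for the club cell score, 17.12 against 15.16 to 16.40. Endothelial genes averaged 13.33 on it, 12.15 to 12.52 on the remaining tumours and 14.71 to 14.93 in lung, and its alveolar type 2 score was 14.47 against 13.77 to 13.98 and 14.59 to 14.74. SCC 5 lay with SCC 1, SCC 3 and SCC 4 in the squamous, neutrophil and endothelial scores. Sftpc, the alveolar type 2 surfactant gene, was at 18.80 on every WT array and at 18.45 to 18.80 on the SCC arrays. Since quantile normalization gives the brightest probe of each array the same value, 18.80 is a ceiling and Sftpc could not show a difference above it. Their part in the levels of the 10 genes was not tested.

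Pancreatic acinar genes were read because Reg1 is abundant in that tissue. Of 10 tested, 2 rose and 1 fell: Gp2 and Cela1 rose and Cpb1 fell. The score was 5.61 to 5.93 in lung, 7.18 on SCC 2, 6.75 on SCC 5 and 6.25 to 6.51 on the other tumours. The defining enzyme genes Cpa1 and Ctrb1 were at 4.81 and 8.06 on SCC 2, against 5.44 to 6.57 and 7.91 to 8.12 in lung, and Pnlip, the gene of pancreatic lipase, was not well above background on SCC 2.

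**Figure D5:**
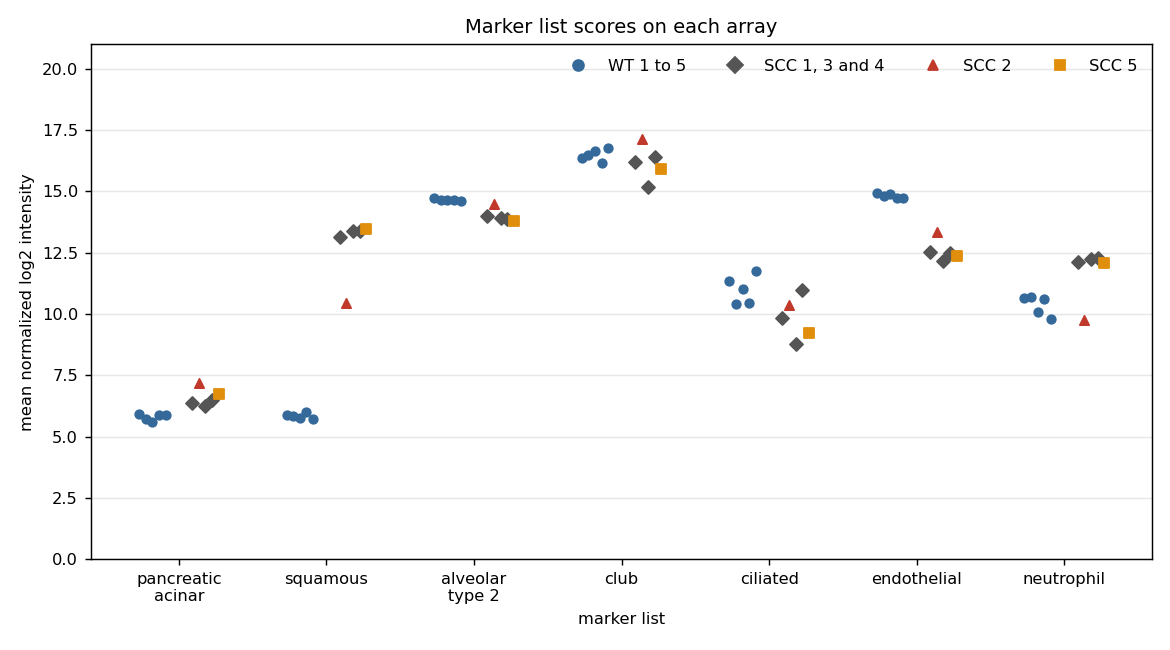
Mean normalized log2 intensity (vertical axis) of 7 marker lists (horizontal axis) on each array, 1 point an array: circles WT, diamonds SCC 1, 3 and 4, triangles SCC 2, squares SCC 5. SCC 2 is the lowest tumour for squamous and neutrophil genes and the highest for club, endothelial, alveolar type 2 and pancreatic acinar genes, while SCC 5 lies with the other tumours for squamous and neutrophil genes.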

How the data were processed

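5 whole lungs of wild type mice and 5 lung tumours, all from 13-month-old mice, were profiled on one-colour Agilent arrays. Per the file headers, Agilent Feature Extraction 12 produced the processed spot intensity, background-subtracted within each array. The authors quantile-normalized these and deposited log2 values, used here as an alternative (r at least 0.99995 with the values used). Processed intensities were averaged over spots of a probe after leaving out outlier spots, quantile-normalized and taken to log2 in R 4.3.3. limma 3.58.1 compared the groups over 30374 of 41174 probes well above background on at least 4 arrays of a group, with Benjamini-Hochberg adjustment, and the fit was tested on simulated data. Probe accessions were named through RefSeq (68.5% matched, 19096 genes). Members and lists were chosen with earlier results of these data known.

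Named were all 10 members, up to 4 called genes in each direction per list and the 3 nearest profiles per member. Groups follow the labels, which call the arrays replicates. The methods call replicates biological in general, and the labels tie no array to an animal, so p-values measure the spread between these samples. With 5 arrays a group, their number limits precision. Slide 1 held WT 1 to WT 4, slide 2 WT 5 and SCC 1 to SCC 3, and slide 3 SCC 4 and SCC 5. Replicate numbers did not pair the arrays: deviations of same-numbered arrays correlated between -0.10 and 0.01. Alternatives covered scaling, background correction, filters, blocks, probe choice and left-out arrays. Normexp used the median spot signal, and the analysis of variance that the methods state was run per probe as an alternative. The order of arrays used in the text was defined after values were seen.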

Additional observations from a re-analysis of the deposited data

Results flagged for a closer look

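Among 46 sets of 5 arrays examined, 5 held an array whose gap to its nearest neighbour was over 0.71 of the set's range. The sets share the same arrays and include the 10 genes, which were chosen on these values, so the count was not set against chance. SCC 2 was the array in 3 of them. Its squamous score of 10.43 stood below the next lowest tumour at 13.13 (gap over range 0.886), its neutrophil score of 9.76 below the next at 12.09 (0.931), and its score of endoderm and gut transcription factors of 9.84 above the next at 8.92 (0.782). Reg3b was high on WT 3, at 2.63 against 2.11 on the next lung (0.741), where it was not well above background. The enterocyte and brush border score was high on WT 1, at 7.18 (0.742).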

How the results depend on the processing

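The 10 genes were highest on SCC 2 and next on SCC 5 under 75th percentile scaling, normexp background correction and in the deposited log2 values, settings chosen for this after seeing the data, and the median SCC 5 minus SCC 2 difference ran from -2.42 in the deposited values to -2.31 under normexp. The median SCC minus WT difference of the 10 with dim values as read, 4.82, ran from 3.47 without SCC 2 to 5.93 without SCC 1, was 2.47 under normexp and was 1.78 without SCC 2 and SCC 5 together. Sult1c2, at 0.19, ran from -1.29 without SCC 2 to 1.01 without SCC 4, and was -0.69 without SCC 5 and -0.20 with slide as a fixed block, and without both tumours, where it was not measured above background, Sult1c2 was -2.94, Lgals4 -0.60 and Vil1 -0.56. Probes called between SCC and WT numbered 6954, 3969 under normexp, 2988 with slide as a fixed block and 14878 without the fold requirement, and 6385 to 8135 with each array left out. The analysis of variance of the methods called 5845 at an unadjusted p below 0.01 and 6502 after Benjamini-Hochberg, both with the fold requirement. The 51 list genes called numbered 19 with slide as a fixed block and 48 to 54 with each array left out. With the replicate block, 6571 probes and 49 list genes were called, and the median of the 10 was 4.82. The higher share was 3504 of 6584 probes under 75th percentile scaling against 3014 of 6954. Of 680 comparisons of 33 named list genes, 632 kept the call and 48 lost it, and 0 changed direction. By gene, 20 of the 33 lost the call in at least 1 setting: 18 with slide as a fixed block, where the 15 that kept it were Muc5ac, Fut2, Cldn18, Cblif, Krt20, Gpa33, Slc5a1, Lgals2, Fabp1, Dpp4, Agr2, Retnlb, Sox9, Klf5 and Gsn, and 5 under normexp (Fut2, Capn9, Cblif, Foxa3 and Gata5). Single arrays left out cost Foxa3, Gata5, Tspan8 and Lgals7 theirs. The cause was not tested. Levels below the lowest value an array measured have no order, and that value was 2.14 on SCC 5 against 3.81 to 4.32 elsewhere.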
